A study of Mus musculus with 10 samples.

Results

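The genes examined encode the mTOR complexes and their upstream inhibitors: Mtor, Rptor, Rictor, Mlst8, Rheb, Tsc1, Tsc2, Deptor, Ddit4 and Sesn2. They were listed by name from the known pathway, each was read from the probe set carrying its symbol alone (the one with the highest mean where there were several), and all 10 were found among the 22180 genes that the arrays name. The samples were regulatory T (Treg) cells, a CD4 T cell lineage that expresses Foxp3 and limits immune responses. They were sorted from mixed bone marrow (BM) chimeras and lysed directly. There were 5 LKB1-deficient samples, which carry a deletion of Stk11, the gene of the kinase LKB1, and 5 wild type (WT) samples, each hybridised to its own array. The sources used here do not give the promoter or Cre line behind the deletion, the exons removed, the host strain, the age of the mice or the number of animals per sample. No label states that replicates are different animals, and the p-values therefore cover the spread among these samples alone, part of which may be technical.

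The kinase mTOR works in a pair of complexes. In mTORC1 it binds raptor (Rptor) and drives protein, lipid and nucleotide synthesis, and in mTORC2 it binds rictor (Rictor) and phosphorylates Akt and SGK kinases. The small GTPase Rheb switches mTORC1 on at the lysosome, and the TSC1-TSC2 complex switches Rheb off. LKB1 activates AMPK, which phosphorylates TSC2 and raptor and so restrains mTORC1 when energy is low, and in Treg cells raptor-dependent signalling is known to be needed for suppressive function. These controls act mostly on proteins, whereas the arrays measured messenger RNA, which addresses whether transcripts of the pathway differ without LKB1.

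None of the 10 transcripts passed the limma test over all genes, in which a gene was called at an adjusted p under 0.05 and 236 genes, or 1.06%, were called. At an unadjusted limma p under 0.05, 2 of the 10 passed, Rptor and Rheb, where 14.0% of all genes did. Rptor was 1.33-fold higher in LKB1-deficient cells and Rheb was 1.2-fold lower. The log2 differences (LKB1-deficient minus WT) ran from -0.35 for Ddit4 to 0.41 for Rptor. Of the 10 estimates 5 were positive and 5 negative, with a median of -0.0004, and the median over all genes was 0.0034.

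**Figure D1:**
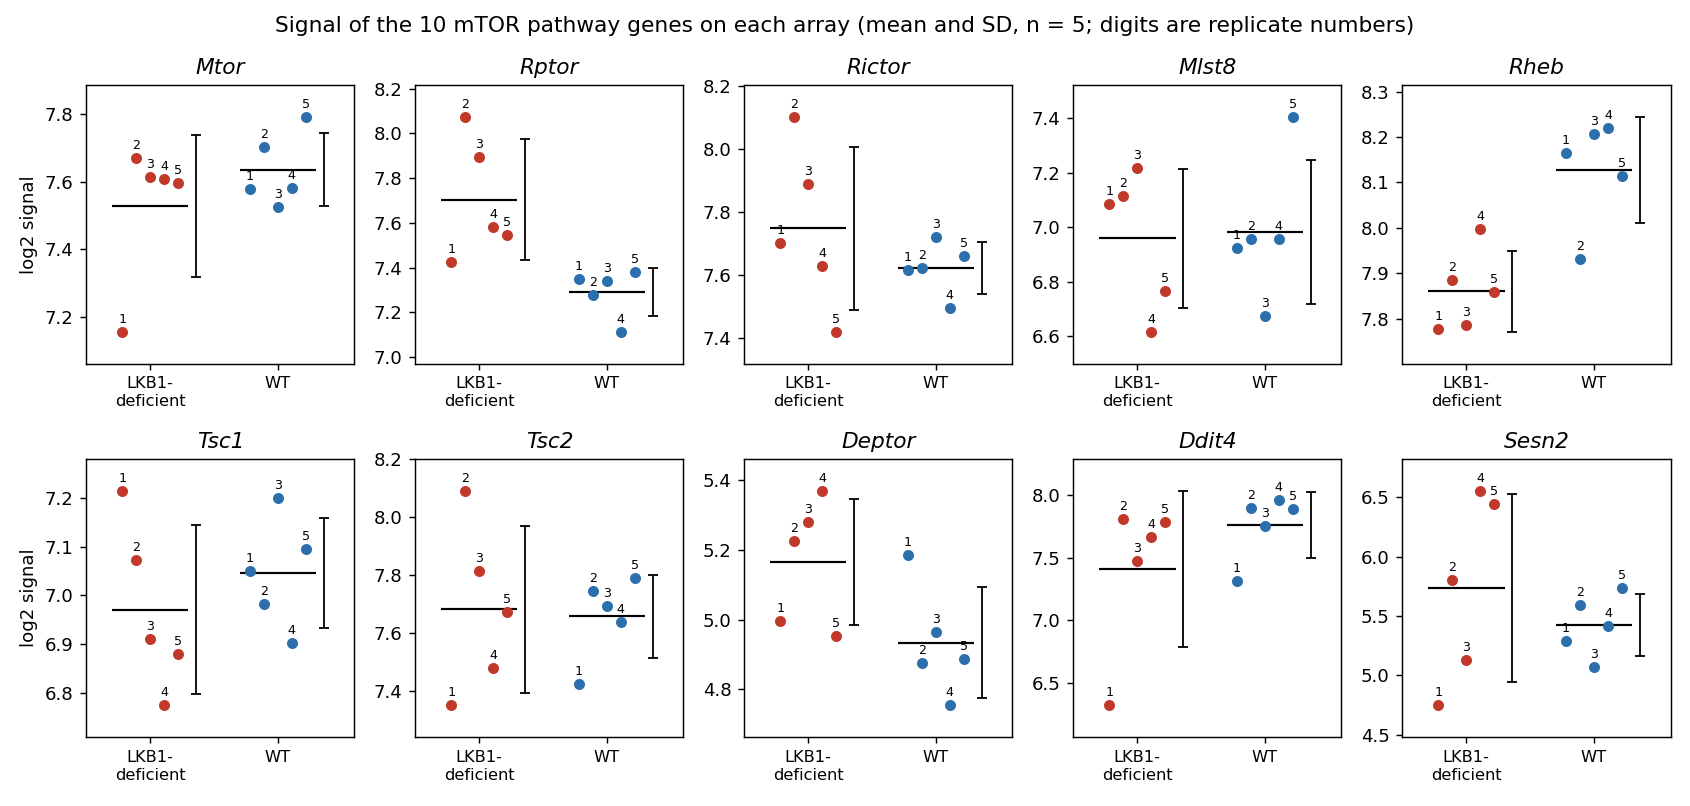
Log2 signal of each gene on the 5 LKB1-deficient arrays (left, red) and the 5 WT arrays (right, blue), with the group mean as a line and the SD as a bar; digits are replicate numbers and each panel has its own scale. Every LKB1-deficient array lies above every WT array for Rptor, 4 of 5 lie below all WT arrays for Rheb, and the other panels overlap more widely.

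Several facts of the arrays touch these values. Foxp3 averaged 11.03 ± 0.67 on LKB1-deficient arrays and 11.09 ± 0.09 on WT arrays (SD, n = 5 each), and LKB1-deficient array 1 was the lowest at 9.86, with all 7 measured Treg and T cell identity markers below the lowest WT array. Transcripts of other cell types were high on LKB1-deficient arrays, most widely on arrays 1, 4 and 5: on arrays 4 and 5 all 14 measured monocyte, macrophage and dendritic markers were above every WT array, and on array 1 all 11 measured B and plasma cell markers were. The mean log2 signal of the 14 markers was 6.59 to 9.29 on LKB1-deficient arrays, against 6.61 to 6.98 on WT arrays. That of the 11 B and plasma cell markers was 6.01 to 7.60 on LKB1-deficient arrays, against 5.80 to 6.14 on WT arrays. The mean of the 2 CD8 T cell markers was 6.88 to 7.18 on LKB1-deficient arrays, against 6.38 to 6.71 on WT arrays. It was above the WT range on all 5 LKB1-deficient arrays, arrays 2 and 3 included. On each of these arrays only 1 of the 2 markers was above every WT array, and of the 2 only Cd8a was called. The mean therefore does not show a rise of both markers. Of the markers of other cell types, Cd8a (0.77, limma adjusted p = 0.0423) and Klrd1 of NK cells (1.53, limma adjusted p = 0.017) rose and Nkg7 of cytotoxic cells (-0.84, limma adjusted p = 0.0236) fell. Stk11 had a difference of -0.36 (adjusted p = 0.335), with 3 of 5 LKB1-deficient arrays below all WT arrays, and the sources used here do not say whether its probe set covers the deleted part. It was at -0.75 with LKB1-deficient arrays 1, 4 and 5 left out (limma adjusted p = 0.0178), and at -0.75 with the macrophage and B cell marker means as covariates (limma adjusted p = 0.0129). Stk11 was lower on arrays 2 and 3 than on these 3, which alone makes the first of these differences larger. In such bulk samples fewer cells of a type and less RNA per cell cannot be told apart.

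Rptor encodes the subunit that recruits substrates to mTORC1 and is itself phosphorylated by AMPK. Its log2 signal was 7.43, 8.07, 7.90, 7.58 and 7.54 on LKB1-deficient arrays 1 to 5, against 7.35, 7.28, 7.34, 7.11 and 7.38 on WT arrays 1 to 5. All 5 LKB1-deficient arrays were above the highest WT array, by the least margin on array 1, and arrays 2 and 3 were the highest. Rptor was the only 1 of the 10 genes whose groups did not overlap, where 0.996% of all genes were free of overlap and higher, 3.71% free of overlap and lower, and 4.71% free of overlap in either direction. The difference was 0.41 (SE 0.13, 95% confidence interval 0.14 to 0.69), with a limma adjusted p of 0.151. The exact permutation test on Rptor alone gave a two-sided p of 0.00794, the smallest that 5 against 5 arrays allow, without adjustment over genes. Any gene whose groups do not overlap gives this value. Within the replicates 1 to 3 of both groups, which carry 1 run of sample codes (set 1), the difference was 0.48. Within replicates 4 and 5 (set 2) it was 0.32. Without overlap of the groups both had to be positive, so the shared sign adds nothing. Leaving out LKB1-deficient arrays 1, 4 and 5 gave a difference of 0.69 (limma adjusted p = 0.0194), and with the macrophage and B cell marker means as covariates it was 0.69 (limma adjusted p = 0.0169). Arrays 2 and 3 were the highest of their group, so leaving out the other 3 had to enlarge it, and the covariates were highest on the 3 arrays left out.

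Mtor, the kinase itself, stood at 7.16, 7.67, 7.61, 7.61 and 7.60 on LKB1-deficient arrays 1 to 5, against 7.58, 7.70, 7.53, 7.58 and 7.79 on WT arrays 1 to 5. LKB1-deficient array 1 alone was below the WT range, and the other 4 lay inside it. The difference was -0.11 (95% confidence interval -0.35 to 0.13, limma adjusted p = 0.721), and leaving out LKB1-deficient array 1 gave -0.01. The interval holds changes of up to 1.27-fold lower and 1.1-fold higher.

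Rictor, the defining subunit of mTORC2, was at 7.70, 8.10, 7.89, 7.63 and 7.42 on LKB1-deficient arrays 1 to 5, against 7.49 to 7.72 with a median of 7.62 on WT arrays. LKB1-deficient arrays 2 and 3 were above all WT arrays and array 5 was below them. The difference was 0.13 (95% confidence interval -0.14 to 0.39, limma adjusted p = 0.702). Mlst8, the small subunit shared by both complexes, ranged from 6.62 to 7.22 with a median of 7.08 on LKB1-deficient arrays, against 6.67 to 7.40 with a median of 6.96 on WT arrays. Its difference was -0.02 (95% confidence interval -0.35 to 0.30, limma adjusted p = 0.964). The sign of Mlst8 was not the same in the sets, at 0.29 in set 1 and -0.49 in set 2, and the difference between the sets had an unadjusted limma p of 0.00578 and an adjusted p of 0.252.

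Within each array the signal of Rptor can be set against that of its partners, which removes any shift shared by the transcripts of an array. The log2 ratio of Rptor to Mtor was 0.27, 0.40, 0.28, -0.02 and -0.05 on LKB1-deficient arrays 1 to 5, against -0.23, -0.43, -0.19, -0.47 and -0.41 on WT arrays. The groups did not overlap and their means differed by 0.52. For Rptor over Rictor the means differed by 0.29, with LKB1-deficient array 1 at -0.27 inside the WT range of -0.38 to -0.27. For Rptor over Mlst8 they differed by 0.44, with overlapping groups. These ratios were formed after the values were seen and are given as a description, with no test. No difference in change between these transcripts was tested, and the level of a ratio depends on the probes.

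Deptor encodes an inhibitory partner of mTOR in both complexes. Its brighter probe set was at 5.00, 5.23, 5.28, 5.37 and 4.95 on LKB1-deficient arrays 1 to 5, against 5.19, 4.88, 4.97, 4.75 and 4.89 on WT arrays. LKB1-deficient arrays 2, 3 and 4 were above all WT arrays. The difference was 0.23 (95% confidence interval -0.01 to 0.47, limma adjusted p = 0.385). The other probe set of Deptor had a mean of 4.32 ± 0.31 on LKB1-deficient arrays and 4.24 ± 0.17 on WT arrays (SD, n = 5 each), a difference of 0.07. The signals of the brighter probe set lay near the array medians over all probe sets, and those of the other lay below them. These medians were 4.88 to 4.94 on LKB1-deficient arrays and 4.83 to 4.86 on WT arrays. The deposited values carry no detection calls, so a low signal cannot be told from background.

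**Figure D2:**
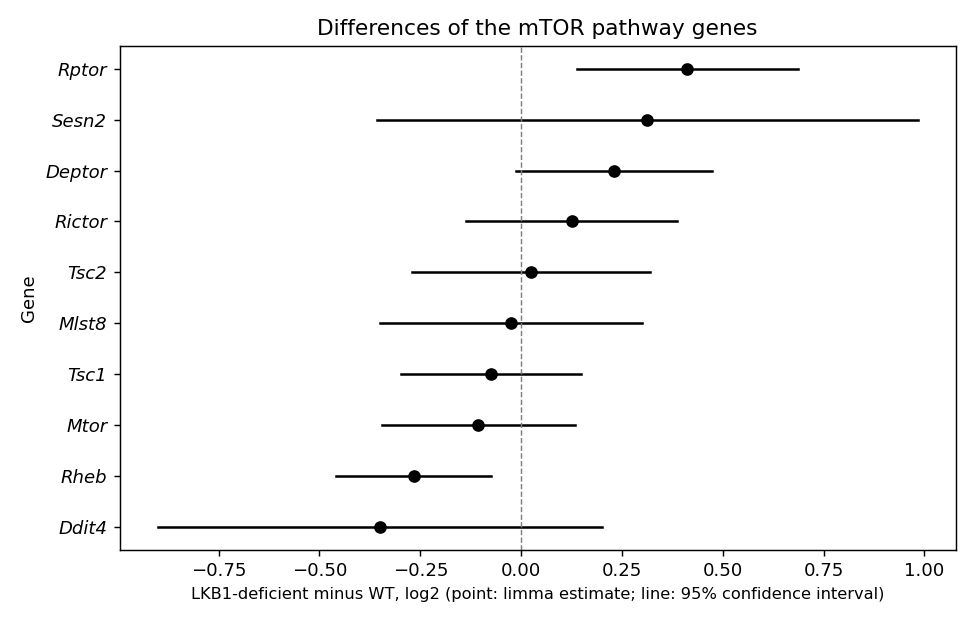
Log2 difference of each gene (LKB1-deficient minus WT) as the limma estimate (point) with its 95% confidence interval (line), sorted by size. The intervals of Rptor (0.14 to 0.69) and Rheb (-0.46 to -0.07) leave out 0 before adjustment over genes, and those of Sesn2 and Ddit4 are the widest.

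Rheb, the GTPase that activates mTORC1, was at 7.78, 7.89, 7.79, 8.0 and 7.86 on LKB1-deficient arrays 1 to 5, against 8.16, 7.93, 8.21, 8.22 and 8.11 on WT arrays 1 to 5. All LKB1-deficient arrays except array 4 were below the lowest WT array, which was array 2. The difference was -0.27 (SE 0.09, 95% confidence interval -0.46 to -0.07) with a limma adjusted p of 0.183, and the exact permutation test on Rheb alone gave a two-sided p of 0.0159. It was -0.28 in set 1 and -0.24 in set 2. Leaving out LKB1-deficient arrays 1, 4 and 5 gave -0.29 (limma adjusted p = 0.276) for Rheb. The mean of the 2 CD8 T cell markers, of which only Cd8a was called, was above the WT range on the arrays kept. It was at 6.97 and 6.88 on arrays 2 and 3, and its part in the Rheb value was not tested.

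The TSC genes encode the complex that turns Rheb off, TSC1 as the stabilising partner and TSC2 as the GTPase-activating protein phosphorylated by AMPK and Akt. Tsc1 ranged from 6.77 to 7.22 with a median of 6.91 on LKB1-deficient arrays, against 6.90 to 7.20 with a median of 7.05 on WT arrays. Tsc2 was at 7.35, 8.09, 7.81, 7.48 and 7.67 on LKB1-deficient arrays 1 to 5, against 7.42, 7.74, 7.70, 7.64 and 7.79 on WT arrays 1 to 5. Both genes overlapped between the groups, and in Tsc2 array 1 was the lowest of either group. The difference of Tsc1 was -0.08 (95% confidence interval -0.30 to 0.15, limma adjusted p = 0.799), and that of Tsc2 was 0.02 (95% confidence interval -0.27 to 0.32, limma adjusted p = 0.962). In the fit of all 10 arrays the intervals of Mtor, Rictor, Mlst8, Tsc1 and Tsc2 reached up to 1.27-fold lower and 1.31-fold higher. With LKB1-deficient arrays 1, 4 and 5 left out Rictor was at 0.37 (limma adjusted p = 0.152) and Tsc2 at 0.29 (limma adjusted p = 0.345). Those limits therefore hold only for the fit of all arrays.

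Ddit4 and Sesn2 encode inhibitors of mTORC1 that cells make under stress. Ddit4 (REDD1) acts through the TSC complex and is induced by hypoxia, glucocorticoids and DNA damage, and Sesn2 (sestrin 2) binds leucine, inhibits the GATOR2 complex and is induced through p53 and ATF4. Because these genes are controlled at transcription, their promoters are shown, from 250 bases before to 50 after the start site, read on the gene's minus strand from RefSeq on GRCm38.p6. Capitals mark matches on either strand to ACGTG (core of the hypoxia response element, which overlaps the E-box), TGACG (in the cyclic AMP response element, and able to overlap ACGTG), TGATGNAA (amino acid response element of ATF4), GTAAACA (forkhead site) and the p53 decamer. The first is chr10:59951721-59952020 and the second chr4:132510407-132510706.
Ddit4: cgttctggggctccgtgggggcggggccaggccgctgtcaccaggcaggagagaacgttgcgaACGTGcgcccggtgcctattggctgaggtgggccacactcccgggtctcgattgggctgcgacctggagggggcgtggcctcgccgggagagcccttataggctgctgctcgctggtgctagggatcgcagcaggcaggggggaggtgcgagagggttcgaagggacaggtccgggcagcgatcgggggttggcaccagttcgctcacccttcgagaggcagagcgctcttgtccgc
Sesn2: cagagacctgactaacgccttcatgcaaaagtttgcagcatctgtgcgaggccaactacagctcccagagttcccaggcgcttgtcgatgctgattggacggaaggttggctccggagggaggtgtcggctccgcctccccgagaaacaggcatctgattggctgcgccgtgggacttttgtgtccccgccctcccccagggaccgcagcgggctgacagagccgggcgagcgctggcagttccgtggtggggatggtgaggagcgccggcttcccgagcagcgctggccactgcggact
For the letters searched, the Ddit4 promoter held 1 match, an ACGTG that begins at base -187 from the start site. The Sesn2 promoter held 0. Of all 32851 promoters of 300 bases, 19.6% held ACGTG, 20.8% TGACG, 3.97% TGATGNAA, 3.65% GTAAACA and 8.36% the p53 decamer. A match describes letters in this window and says nothing about binding.

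Ddit4 was at 6.32, 7.81, 7.47, 7.66 and 7.79 on LKB1-deficient arrays 1 to 5, against 7.31, 7.90, 7.75, 7.96 and 7.88 on WT arrays 1 to 5. Array 1 was the lowest within each group, and LKB1-deficient array 1 was the only one outside the WT range. The difference was -0.35 (95% confidence interval -0.90 to 0.20, limma adjusted p = 0.590), and leaving out LKB1-deficient array 1 gave -0.08. LKB1-deficient array 1 is also the array with the lowest Foxp3, and the part of other cells in its Ddit4 value was not tested.

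Sesn2 was at 4.75, 5.80, 5.13, 6.55 and 6.44 on LKB1-deficient arrays 1 to 5, against 5.29, 5.60, 5.07, 5.42 and 5.74 on WT arrays 1 to 5. It spread over the widest range of the 10 genes in LKB1-deficient samples, with arrays 4 and 5 highest and array 1 below every WT array. The difference was 0.31 (95% confidence interval -0.36 to 0.98, limma adjusted p = 0.707). It was -0.09 in set 1 and 0.92 in set 2, where 2 against 2 arrays passed the limma test (adjusted p = 0.0492). The difference between the sets did not pass (1.01, limma adjusted p = 0.483). Arrays 4 and 5, with the high Sesn2, are those with a mean of 9.24 and 9.29 over the 14 monocyte, macrophage and dendritic markers, against 6.61 to 6.98 on WT arrays, and without LKB1-deficient arrays 1, 4 and 5 the difference of Sesn2 was 0.04.

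**Figure D3:**
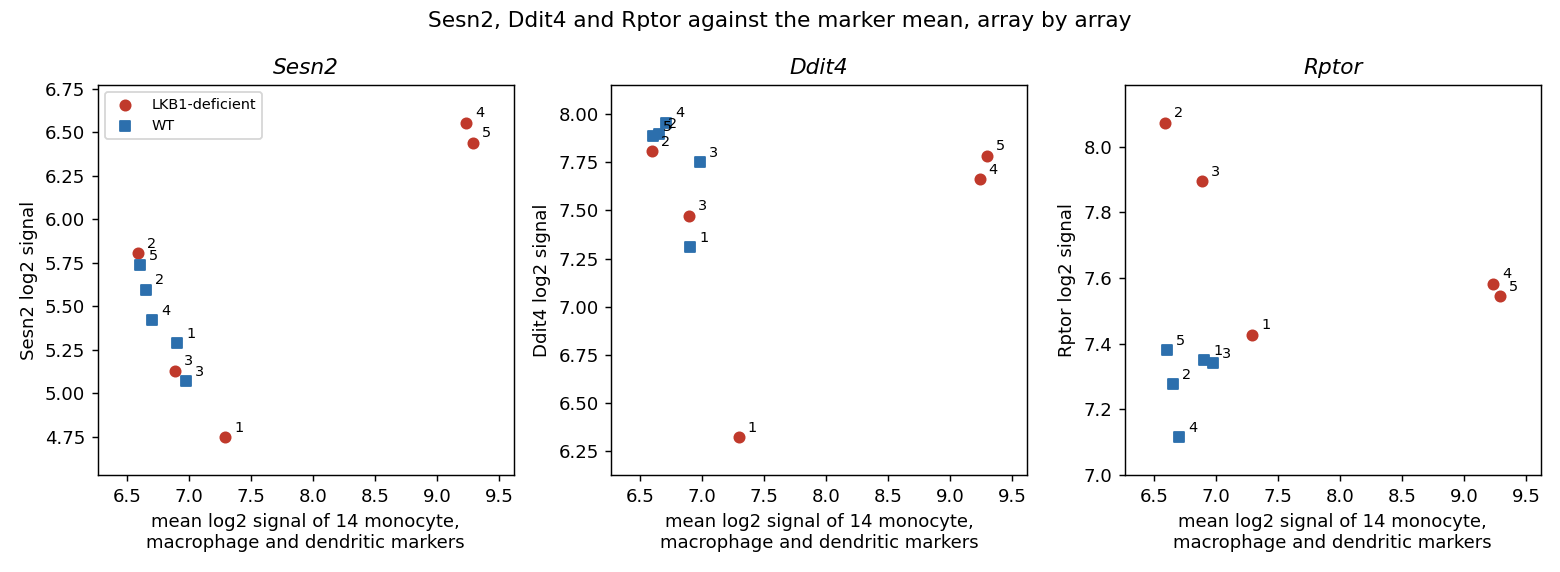
Log2 signal of Sesn2, Ddit4 and Rptor on each array (vertical axes) against the mean log2 signal of 14 monocyte, macrophage and dendritic markers (horizontal axes), with LKB1-deficient arrays as red circles and WT arrays as blue squares; digits are replicate numbers. Sesn2 is highest on LKB1-deficient arrays 4 and 5, where the marker mean is 9.24 and 9.29, Ddit4 is lowest on array 1, and Rptor is highest on arrays 2 and 3, where the marker mean is 6.59 and 6.89.

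Across the 10 genes the arrays of the LKB1-deficient group did not move alike. Array 1 had the lowest value of the group for Mtor, Rptor, Rheb, Tsc2, Ddit4 and Sesn2, and the highest for Tsc1. Array 2 was the highest for Mtor, Rptor, Rictor, Tsc2 and Ddit4. The SD among LKB1-deficient arrays exceeded that among WT arrays for all genes of the 10 except Mlst8 and Rheb, with 0.79 against 0.26 for Sesn2 and 0.62 against 0.26 for Ddit4.

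**Figure D4:**
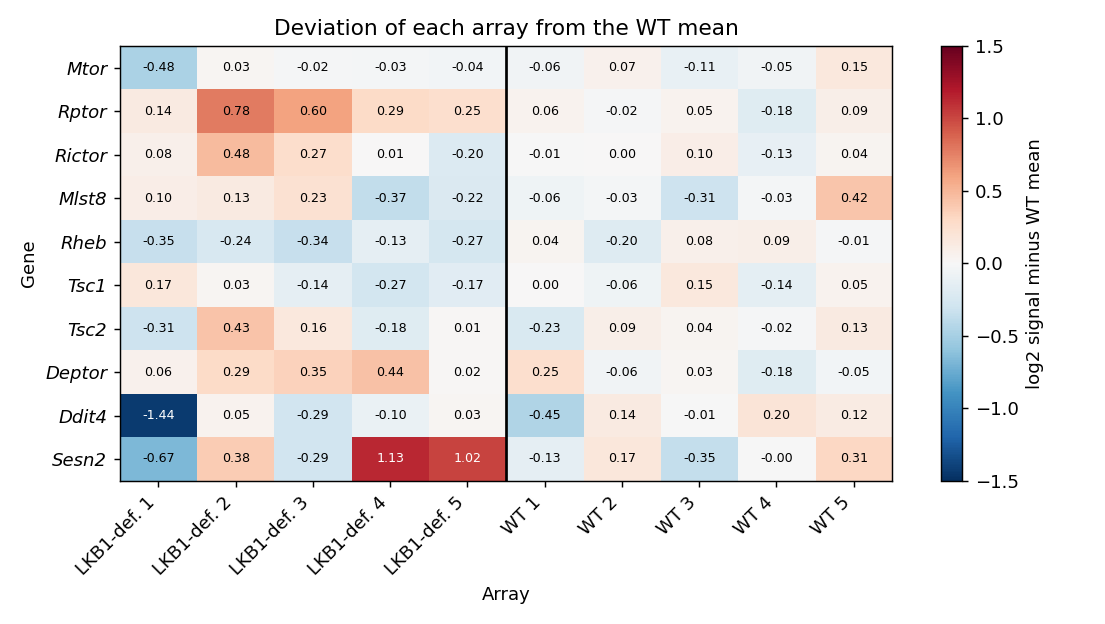
Log2 signal of each gene (rows) on each array (columns, LKB1-deficient left of the line and WT right of it) minus the WT mean of that gene, as colour and printed value. Rptor is above 0 and Rheb below 0 on all 5 LKB1-deficient arrays, while Ddit4 and Sesn2 take their extreme values on array 1 and on arrays 4 and 5.

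The genes whose pattern over the 10 arrays was most like that of Rptor were Bach2 (Pearson r = 0.967), a transcription factor that restrains effector differentiation of T cells, Zdhhc15 (0.958), a palmitoyltransferase, and B2m (0.951), the light chain of MHC class I. Those most like Rheb were Nsmaf (0.980), Plcb4 (0.936), a phospholipase C, and Abce1 (0.935), a ribosome recycling factor. They were picked from all other genes for this likeness, the arrays share their group and their cell content, and the correlations are given as a description of 10 arrays. Of these 6 genes Plcb4 fell (-0.71, limma adjusted p = 0.0293). Bach2 (0.32, limma adjusted p = 0.202) and Abce1 (-0.44, limma adjusted p = 0.0513) did not pass.

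The wider pathway was read from 9 lists with 110 measured genes, of which 1 rose and 0 fell in the limma test (0.909%, beside 1.06% of all genes, of which 0.234% rose and 0.83% fell). At an unadjusted limma p under 0.05, 21 of them passed (19.1%, beside 14.0% of all genes), and their median difference was -0.05. Each gene was read from its brightest probe set. Of the 110 genes, 2 were free of overlap and higher, Car9 and Tsc22d3 (1.82%, beside 0.996% of all genes). There were 8 free of overlap and lower (7.27%, beside 3.71% of all genes). The shares over all genes include dim genes, and the list shares were not set against genes of like signal. Other mTOR subunits and assembly factors had 0 of 10 genes called, with 8 of 10 estimates negative and a median of -0.13. Telo2, which helps to assemble mTOR and related kinases, was at 5.17 ± 0.19 on LKB1-deficient arrays and 5.59 ± 0.20 on WT arrays (SD, n = 5 each), a difference of -0.42 (limma adjusted p = 0.135). Tbc1d7, the third subunit of the TSC complex, was at -0.35 (limma adjusted p = 0.301). Leaving out LKB1-deficient arrays 1, 4 and 5 gave -0.08 for Tbc1d7.

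The amino acid sensing genes (GATOR1, GATOR2, KICSTOR, CASTOR and the other sestrins) had 0 of 16 genes called, 14 negative estimates and a median of -0.15. Mios, a subunit of the GATOR2 complex to which sestrins bind, was 6.40 to 7.23 on LKB1-deficient arrays, against 7.32 to 7.44 on WT arrays. The groups of Mios did not overlap, and the difference was -0.49 (limma adjusted p = 0.129). Wdr59, another GATOR2 subunit, was at -0.29 (limma adjusted p = 0.270). Sesn1 and Sesn3, the paralogs of Sesn2, were at -0.15 and -0.09 (limma adjusted p = 0.737 and 0.811). The Rag GTPase, Ragulator and folliculin genes, which bring mTORC1 to the lysosome, had 0 of 13 called and a median of -0.01, with estimates between -0.24 and 0.19. Their smallest p belonged to Slc38a9, the lysosomal arginine sensor (0.19, limma adjusted p = 0.426, and 0.31 when LKB1-deficient arrays 1, 4 and 5 were left out), and Lamtor4, a Ragulator subunit (-0.21, limma adjusted p = 0.438).

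Upstream of TSC, the PI3K and Akt list had 0 of 14 genes called, 11 positive estimates and a median of 0.05. Phlpp1, a phosphatase that dephosphorylates Akt, was at 8.02, 9.08, 9.27, 9.06 and 8.82 on LKB1-deficient arrays 1 to 5, against 8.08 to 8.40 on WT arrays. LKB1-deficient array 1 was below all WT arrays and the other 4 were above them. The difference of Phlpp1 was 0.62 (limma adjusted p = 0.165). It was 0.83 without LKB1-deficient array 1 (limma adjusted p = 0.00341), which had to enlarge it because that array was the lowest. Leaving out LKB1-deficient arrays 1, 4 and 5 gave 0.95 (limma adjusted p = 0.00714), again enlarged because the arrays kept include the 2 highest. It was 0.96 with the marker covariates (limma adjusted p = 0.00386) and 0.76 with array quality weights (limma adjusted p = 0.0194). In limma fits that each left out 1 array, Phlpp1 passed in 1 of 10 (adjusted p of up to 0.315). It did not pass with a second quantile normalization (limma adjusted p = 0.101) or with the replicate number as a block (limma adjusted p = 0.243). Pik3cb, a catalytic subunit of PI3K, was at 0.27 (limma adjusted p = 0.421), and at 0.017 when LKB1-deficient arrays 1, 4 and 5 were left out. Akt1, Akt2 and Pdpk1 were at 0.05, 0.03 and -0.08, none past the test.

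Downstream, the mTOR substrates and effectors had 0 of 17 genes called and a median of -0.03. Eif4b, a translation initiation factor phosphorylated by the S6 kinases, was 9.17 to 9.79 on LKB1-deficient arrays, against 9.87 to 9.97 on WT arrays, so its groups did not overlap. Its difference was -0.39 (limma adjusted p = 0.129). Sgk1, a kinase activated by mTORC2, was at 6.19, 4.90, 5.57, 5.93 and 6.12 on LKB1-deficient arrays 1 to 5, against 4.96 to 5.44 on WT arrays. Its difference was 0.60 (limma adjusted p = 0.230) and 0.81 without LKB1-deficient array 2 (limma adjusted p = 0.0368). It came to 0.09 when LKB1-deficient arrays 1, 4 and 5 were left out. Sgk1 was lowest of all on array 2, so leaving that array out had to enlarge the difference. The mTORC1 targets Eif4ebp1, Ulk1 and Tfeb were at -0.24, 0.08 and -0.06, none past the test.

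The lists of genes induced with Ddit4 or Sesn2 under stress showed 1 call. The ATF4 list had 0 of 13 called, 3 positive and 10 negative estimates and a median of -0.08. Above 0 lay Slc7a11 (0.39, limma adjusted p = 0.39), Trib3 (0.32, limma adjusted p = 0.246) and Atf3 (0.26, limma adjusted p = 0.561). Trib3 was among the 3 list genes with an unadjusted limma p under 0.05. Psat1, of serine synthesis, was at -0.54 (limma adjusted p = 0.110) and passed without LKB1-deficient array 1 (-0.68, limma adjusted p = 0.00683), the array highest of its group for it. It also passed with LKB1-deficient arrays 1, 4 and 5 left out (-0.66, limma adjusted p = 0.0408), where the arrays kept include the lowest, array 3. Psat1 passed with the marker covariates (-0.66, limma adjusted p = 0.0251) and with array quality weights (-0.63, limma adjusted p = 0.0189). In limma fits that each left out 1 array, it passed in 1 of 10 (adjusted p of up to 0.232). Psat1 did not pass with a second quantile normalization (limma adjusted p = 0.243) or with the replicate number as a block (limma adjusted p = 0.129). Slc3a2, the heavy chain of amino acid transporters, was at -0.25 without overlap of its groups (limma adjusted p = 0.174). The p53 target list had 0 of 9 called and a median of -0.04, with Ccng1, cyclin G1, at -0.36 without overlap (limma adjusted p = 0.174) and Trp53inp1 at -0.13 (limma adjusted p = 0.607). The HIF target list had 0 of 9 called, 6 negative estimates and a median of -0.14. Car9, a carbonic anhydrase, was at 0.51 without overlap in its brightest probe set (limma adjusted p = 0.0741). With its probe sets averaged Car9 was at 0.22 (limma adjusted p = 0.304). Below 0 lay Pgk1, of glycolysis (-0.30, limma adjusted p = 0.229), Slc2a1 (-0.30, limma adjusted p = 0.25) and Egln1 (-0.25, limma adjusted p = 0.276). Of the 4 list genes with an unadjusted limma p under 0.05, Car9 alone had a positive estimate.

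In the glucocorticoid and Foxo target list 1 of 9 genes rose and 0 fell, with a median of -0.03. The 1 gene was Tsc22d3 (GILZ), a leucine zipper protein induced by glucocorticoids and by Foxo factors. It was at 6.69, 6.84, 7.0, 6.81 and 6.68 on LKB1-deficient arrays 1 to 5, against 6.25, 6.48, 6.26, 6.25 and 6.35 on WT arrays 1 to 5, so every LKB1-deficient array was above every WT array. The difference was 0.49 (SE 0.09, limma adjusted p = 0.0303), or 1.4-fold. It was past the threshold in 3 of 10 limma fits that each left out 1 array, and the call ended without LKB1-deficient array 2, 3 or 4 or WT array 1, 3, 4 or 5 (adjusted p of up to 0.101, without WT array 3). The difference was 0.60 (limma adjusted p = 0.0304) without LKB1-deficient arrays 1, 4 and 5. With the replicate number as a block its limma adjusted p was 0.108. Klf9 and Fkbp5, both also induced by glucocorticoids, had estimates of the opposite sign, at -0.53 (limma adjusted p = 0.0898) and -0.31 (limma adjusted p = 0.263).

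**Figure D5:**
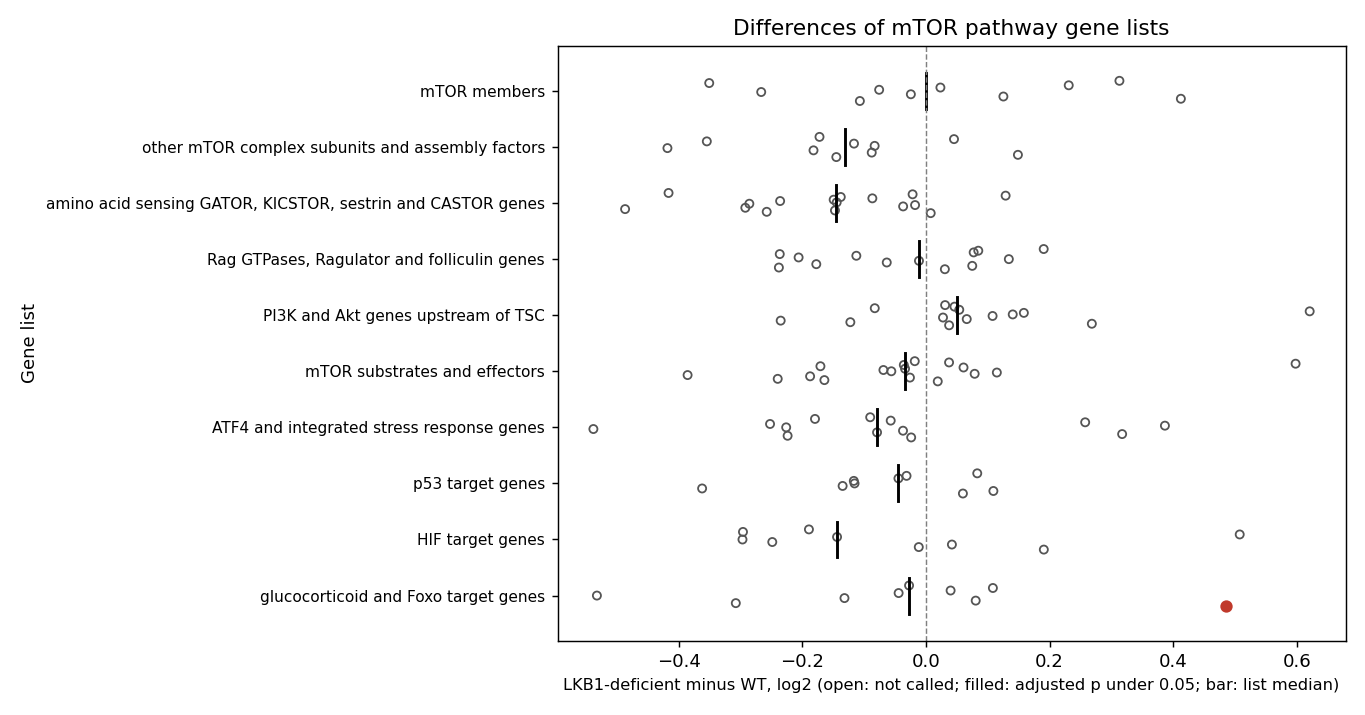
Log2 differences of single genes (points; LKB1-deficient minus WT) in the 10 mTOR pathway genes (top row) and in 9 lists of related genes, with the list median as a bar. The 1 filled point, Tsc22d3 at 0.49, is the gene called at an adjusted p under 0.05, and the medians lie between -0.15 and 0.05.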

How the data were processed

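Levels were measured on single-channel arrays from total RNA that was amplified and labelled with biotin, per the labels' protocols. The deposited values are log2 signals per probe set made by the authors with RMA and Partek 6.6, per the submitters' processing notes; the sources used here do not give their order or settings. Amplification of little RNA can distort single levels, and normalization between arrays hides a shift shared by all genes. Of 41345 probe sets, 23521 name 1 gene symbol. Groups came from the sample titles. All 10 arrays entered 1 limma 3.58.1 fit (R 4.3.3; lmFit and eBayes, 4.36 prior degrees of freedom), with Benjamini-Hochberg adjustment over 22180 genes and no filter on low signals. The number of arrays limits the precision. Named genes were the 10, Stk11, the called genes of each list (at most 4) or its 2 of smallest p, and the 3 genes most like each of the 2 members of smallest p; other list genes given with values were chosen after their values were seen. The members and lists were chosen with earlier results of these data known. The code was checked on simulated data. Alternatives covered probe set averaging, dim genes, scaling, variance priors, array weights, blocks, the sets of sample codes, arrays left out and marker covariates.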

Additional observations from a re-analysis of the deposited data

Results flagged for a closer look

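Among 56 groups of 5 arrays (28 genes in 2 groups), 2 held an array far from the others by Dixon's ratio of gap to range, where chance gives about 1 in 20. In Mtor, LKB1-deficient array 1 stood at 7.16, with a ratio of 0.859 against the critical value of 0.71. In Ddit4 the same array stood at 6.32, with a ratio of 0.774. Array 1 had the lowest Foxp3 (9.86) and the highest NK marker mean (5.87) of its group, and the part of these in the values of Mtor and Ddit4 was not tested.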

How the results depend on the processing

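Of 240 alternative readings of single members, 16 changed the sign and 3 passed the threshold where the fit of all arrays did not. The stricter threshold refits nothing, and the variance settings, blocks and removal of dim genes leave the difference as it was. So does probe set averaging for every member except Deptor, the only member with several probe sets. In these the sign could not change. The count of members called was 0. It was 1 in set 2 alone (Sesn2, 0.92), where 469 of all genes were called. It was also 1 without LKB1-deficient arrays 1, 4 and 5 (Rptor, 0.69), where 357 of all genes were called. With the marker covariates it was again 1 (Rptor, 0.69), where 322 of all genes were called. The changes of sign were 7 of Mlst8, 5 of Tsc2, 2 of Mtor and 1 each of Rictor and Sesn2. Without LKB1-deficient arrays 1, 4 and 5 and with the marker covariates Mtor was at 0.0056 and 0.015 and Mlst8 at 0.18 and 0.16. Mlst8 was at 0.042 after a second quantile normalization, 0.29 in set 1, and between -0.10 and 0.081 with 1 array left out. Tsc2 was at -0.016 after subtraction of array medians, -0.14 in set 2, and between -0.079 and 0.11 with 1 array left out. Rictor was at -0.053 in set 2, and Sesn2, at 0.31 in all arrays, at -0.092 in set 1. Among list genes Slc38a9 turned to -0.041 in set 2. Over all genes 236 were called, and 356 without the dimmest 40%, 386 with a trended robust prior, 149 without moderation, 464 with array weights, 0 in set 1 (limma), 469 in set 2, 357 without LKB1-deficient arrays 1, 4 and 5, 25 at an adjusted p under 0.01, and 38 (without WT array 4) to 520 (without LKB1-deficient array 1) with 1 array left out. Of the genes in the 9 lists 1 was called, and 2 with a trended robust prior and without moderation, 4 with array weights, 3 without LKB1-deficient arrays 1, 4 and 5 and with the covariates, 0 in set 1, in set 2 and at an adjusted p under 0.01, and 0 to 4 with 1 array left out. With the replicate number as a block 50 genes, 0 members and 0 list genes were called. Arrays of the same number had deviations from their group means that correlated at -0.08 to 0.10, and 2 of 5 matched their own number best. Uneven cell content also moves these deviations, so the check cannot settle whether samples of the same number were paired. The causes were not tested.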
